A study of Mus musculus with 6 samples.

Results

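The genes described here encode 9 proteins that link the actin cytoskeleton to the cell surface or bind along actin filaments. The linkers are zyxin (Zyx), vinculin (Vcl), talin 1 (Tln1), paxillin (Pxn), filamin A (Flna), integrin-linked kinase (Ilk) and alpha-parvin (Parva). Calponin 2 (Cnn2) and transgelin 2 (Tagln2) bind along filaments. The genes are 9 of the 21899 listed in the deposited expression table and were found there by symbol. All 9 were among the 12135 genes tested. The list was drawn up with earlier results of the same comparison known, so the changes given below describe these genes and are no independent evidence about them. The samples were 6 libraries of C2C12, a clonal line of wild-type mouse myoblasts that the labels call myocytes: 3 were given phosphate-buffered saline (PBS) and 3 were given 5-fluorouracil (5-FU), a pyrimidine analogue used in chemotherapy, at 5 µg per L for 24 h, a dose that stood for metronomic treatment. Sample titles were followed here for the identity of the line, since the cell line entry differs from C2C12 in its last digit for 2 of the treated libraries. Whether replicates were grown separately is unstated, so all spreads and p-values are those between these libraries, and in a line that can fuse into myotubes less RNA per cell and fewer cells of a state cannot be told apart.

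A focal adhesion is a patch of membrane at which integrins hold the extracellular matrix on the outside and, through a layered plaque of adaptor proteins, actin bundles on the inside. Talin binds the integrin tail and activates it, vinculin is recruited to stretched talin and ties it to actin, paxillin and the complex of integrin-linked kinase, PINCH and parvin form the signalling layer, and zyxin sits nearest to actin and helps repair strained stress fibres. Filamin A cross-links actin filaments and also binds integrin tails, and calponin 2 and transgelin 2 belong to a family of proteins that bind along actin filaments. In myoblasts such contacts serve migration, alignment before fusion and attachment to laminin, and many of the genes involved are known targets of serum response factor (SRF) and of its coactivators, the myocardin-related transcription factors, which respond to free actin.

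Each library held between 19583312 and 23016735 estimated counts. Markers of the labelled cell type were abundant: the 8 myoblast markers, among them Myod1 and Des, added up to between 3350 and 3430 TPM (the authors' transcript abundance, scaled by length and to the same total in each library) in the PBS libraries and to between 3700 and 4180 TPM in the 5-FU libraries. The 6 markers of differentiated muscle stood at 1430 to 1710 TPM and 1390 to 2390 TPM, the 4 smooth muscle markers at 112 to 126 TPM and 120 to 136 TPM, and the markers of adipocytes, macrophages, endothelium and Schwann cells at no more than 8.54 TPM for any list of 4. The myoblast sum was thus higher in every 5-FU library than in any PBS library, and its part in the results below was not tested. Des made up most of that sum (1806 ± 36 and 2069 ± 150 TPM). In the fit described below, of the myoblast markers only Cdh15 was called higher (log2 fold change 0.21), and Cdh2 had a negative value (-0.13) that was not called. Of the differentiated muscle markers none was called, with Mymk at 0.40, Myog at 0.33 and Myh3 at -0.06. Each of them was highest in 5-FU replicate 2, where Acta1 stood at 1272 TPM, beside 865 and 717 TPM in 5-FU replicates 1 and 3. The part of this library's marker level in the results below was not tested. Of the smooth muscle markers Cnn1 was called lower (-0.46), and Smtn (0.17) and Lmod1 (-0.33) were not called. All 9 genes were strongly expressed, with between 2969 and 76594 estimated counts in a library, and their summed counts were 0.815% to 0.900% of the total in PBS and 0.777% to 0.831% in 5-FU.

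In the fit across all genes, 4 of the 9 fell in 5-FU and none rose: Cnn2 (log2 fold change -0.31), Tagln2 (-0.25), Ilk (-0.21) and Zyx (-0.15). Vcl (-0.16), Parva (-0.08) and Flna (-0.08) had negative values that did not pass an adjusted p under 0.05, and Tln1 (-0.0034) and Pxn (0.0060) stood close to 0. Over all genes tested the same edgeR test called 7.14%, and 3.26% as lower. Among the 1359 genes whose mean was at least that of Pxn, the lowest of the 9, it called 8.54% as lower. The median log2 fold change of the 9 genes was -0.152, beside 0.001 for all genes tested, and since the genes were chosen on this comparison neither figure is read further. The groups did not overlap in 6 of the 9 genes, beside 29.3% of the genes tested. In all 6 the 5-FU libraries were the lower ones, an order seen in 14.2% of the genes tested. The changes were small: the largest, that of Cnn2, amounted to -19.3%. Differences between the members themselves were not tested.

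**Figure D1:**
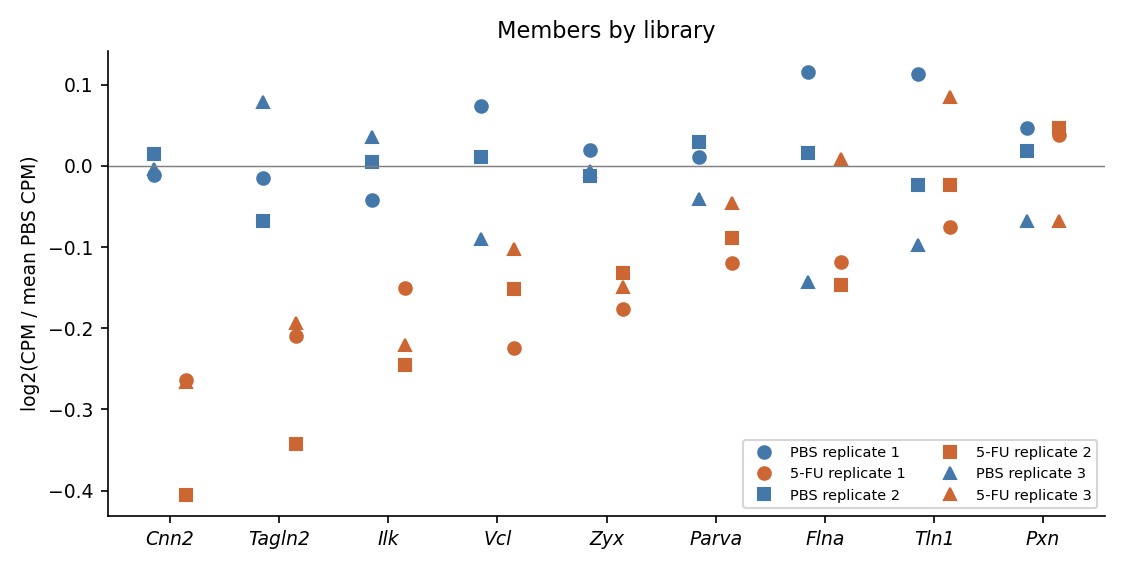
CPM (counts scaled to a common library size) of each gene in each of the 6 libraries, as log2 of the ratio to the mean of the 3 PBS libraries; genes are ordered by fitted change and the symbol shape gives the replicate number. The groups are separated in Cnn2, Tagln2, Ilk, Vcl, Zyx and Parva and overlap in Flna, Tln1 and Pxn.

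The actin-binding pair Cnn2 and Tagln2 changed most. Cnn2 (ENSMUSG00000004665) encodes the calponin of non-muscle cells, which binds actin and restrains its sliding over myosin. Its CPM, counts scaled by library size and TMM factor, were 561, 571 and 564 in PBS replicates 1 to 3 and 471, 427 and 470 in 5-FU replicates 1 to 3. The PBS libraries were nearly identical, with 5.0 CPM of SD around a mean of 565, and every 5-FU library was lower, replicate 2 most of all (456 ± 25 CPM; log2 fold change -0.31, SE 0.046, edgeR adjusted p = 0.0032). Cnn2 was also the only one of the 9 called in each of the 6 refits that left out 1 library, with values from -0.34 to -0.27 and adjusted p from 0.00678 to 0.0269. Tagln2 (ENSMUSG00000026547), the widely expressed transgelin, which binds and bundles actin, stood at 585, 564 and 624 CPM in PBS and at 511, 466 and 517 CPM in 5-FU. PBS replicate 3 was the highest library and 5-FU replicate 2 the lowest, and the groups did not overlap (591 ± 30 and 498 ± 28 CPM, n = 3; log2 fold change -0.25, SE 0.053, edgeR adjusted p = 0.0198). The call was kept in 3 of the 6 refits and was lost without PBS replicate 1 (adjusted p = 0.0504), PBS replicate 3 (0.0612) and 5-FU replicate 2 (0.0546).

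The paralogues of this pair differed in level and in change. Cnn1, the calponin of smooth muscle, was low in these cells and fell from 11.7 ± 0.85 to 8.52 ± 0.61 CPM (log2 fold change -0.46, SE 0.10, edgeR adjusted p = 0.0229; called in 2 of 6 refits, with adjusted p up to 0.110). Cnn3, the calponin that supplied most calponin transcripts, stood at 1023 ± 27 and 947 ± 50 CPM and was not called (-0.11, SE 0.047, edgeR adjusted p = 0.170). In TPM, a scale on which levels of different genes can be set side by side, Cnn2 made up 30.3%, 29.7% and 30.4% of the 3 calponins in PBS and 28.2%, 25.1% and 29.1% in 5-FU. The share of Cnn2 was lower in every 5-FU library, and that of Cnn3 was higher in every one (68.8% ± 0.16 and 71.6% ± 2.2). Tagln, the transgelin of smooth muscle, fell from 288 ± 17 to 225 ± 15 CPM (-0.35, SE 0.057, edgeR adjusted p = 0.00511) and kept its call in all 6 refits. Because both transgelins were lower, the share of Tagln2 in their summed TPM overlapped between groups (71.5% ± 1.8 and 73.2% ± 0.79), while the sum itself stood at 1246 ± 11 and 1064 ± 51 TPM. Tagln3, the neuronal member, was listed at 0 in all 6 libraries.

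Zyx (ENSMUSG00000029860), the LIM protein of the actin-facing plaque layer, was the most abundant of the 9 per unit length. It stood at 1280, 1252 and 1258 CPM in PBS and at 1118, 1153 and 1139 CPM in 5-FU. The 3 libraries of each group lay within a narrow band and the bands did not meet (1264 ± 15 and 1137 ± 18 CPM; log2 fold change -0.15, SE 0.038, edgeR adjusted p = 0.0357). The call did not hold in any of the 6 refits without 1 library, where adjusted p ran from 0.0614 (without 5-FU replicate 2) to 0.130 (without PBS replicate 2) at values of -0.16 to -0.14. On log2(TPM + 1) limma did not call it either (-0.11, adjusted p = 0.136). The exons of Zyx share 236 bases with those of Epha1 on the opposite strand in GENCODE M21, and some counts of both genes were not whole numbers. The relatives Lpp and Trip6, LIM proteins that share adhesion sites with zyxin, supplied little of the family and were not called (-0.07, SE 0.090, and -0.02, SE 0.049). Zyx made up 94.4%, 94.1% and 94.0% of the family's TPM in PBS and 93.7%, 93.7% and 93.2% in 5-FU.

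Vcl (ENSMUSG00000021823), which couples talin to actin, stood at 1157, 1108 and 1033 CPM in PBS and at 941, 990 and 1024 CPM in 5-FU. PBS replicate 3 and 5-FU replicate 3 lay next to each other, and the groups met without overlapping. The fitted change was as large as that of Zyx but its error was larger (1099 ± 62 and 985 ± 42 CPM; -0.16, SE 0.051, edgeR adjusted p = 0.0827). Vcl was called without PBS replicate 3 (-0.20, adjusted p = 0.0459), by DESeq2 (-0.16, adjusted p = 0.0345) and after trends with transcript length and GC content were removed (-0.18, adjusted p = 0.0101), and in none of the other alternatives run. The exons of Vcl share 2090 bases with those of Ap3m1 on the opposite strand in GENCODE M21, the strand setting of the counting is not given in the sources used here, and some counts of both genes were not whole numbers. Ap3m1 stood at 84.6 ± 5.7 and 80.5 ± 5.0 CPM and was not called.

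The kinase-like adaptor and its partner gave unequal values. Ilk (ENSMUSG00000030890), the scaffold on which PINCH and parvin assemble, stood at 274, 283 and 289 CPM in PBS and at 254, 238 and 242 CPM in 5-FU. The groups did not overlap, and the gap lay between PBS replicate 1 and 5-FU replicate 1 (282 ± 7.6 and 244 ± 8.3 CPM; log2 fold change -0.21, SE 0.043, edgeR adjusted p = 0.0177). The call was lost without PBS replicate 2 (adjusted p = 0.0882), 5-FU replicate 2 (0.0546) and 5-FU replicate 3 (0.0619) and was kept in the other 3 refits. Of the 2744 exonic bases of Ilk in the comprehensive annotation, 2106 are shared with Taf10 on the opposite strand, and the counts of both were partly not whole, so reads of the pair cannot be told apart with certainty. Taf10, a subunit of general transcription factor TFIID, was the smaller of the pair, at 75.4 ± 3.3 and 68.0 ± 4.2 CPM (-0.15, SE 0.057, edgeR adjusted p = 0.136). Rrp8, also on the opposite strand, shares 355 bases with Ilk in that annotation. Its counts were partly not whole too, and it was not called (-0.07, SE 0.064). Parva (ENSMUSG00000030770), the actin-binding parvin of the complex, stood at 313, 317 and 302 CPM in PBS and at 286, 292 and 301 CPM in 5-FU. The highest 5-FU library all but touched the lowest PBS library, and the value was not called (311 ± 8.2 and 293 ± 7.4 CPM; -0.08, SE 0.041, edgeR adjusted p = 0.236). Parvb, which supplied 31.9% ± 1.4 and 32.4% ± 1.5 of the parvin TPM, was not called either (-0.06, SE 0.049), and Parvg, the parvin of blood cells, had at most 4 counts in a library.

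Tln1 and Pxn showed no difference that these libraries could resolve. Tln1 (ENSMUSG00000028465), the integrin activator, stood at 1068, 971 and 923 CPM in PBS and at 937, 971 and 1047 CPM in 5-FU. The groups spanned nearly the same range (987 ± 74 and 985 ± 57 CPM; -0.0034, SE 0.059, edgeR adjusted p = 0.982). Tln2, its muscle paralogue, made up 7.76% ± 0.21 and 7.37% ± 0.48 of talin TPM and was not called (-0.04, SE 0.072). Pxn (ENSMUSG00000029528), the scaffold for focal adhesion kinase signalling, stood at 157, 154 and 145 CPM in PBS and at 156, 157 and 145 CPM in 5-FU, and again the groups overlapped fully (152 ± 6.3 and 152 ± 6.5 CPM; 0.0060, SE 0.048, edgeR adjusted p = 0.957). Its relative Tgfb1i1, known as Hic-5, lay above Pxn in TPM, at 127 ± 1.9 and 119 ± 2.6, and below it in CPM, at 115 ± 2.2 and 105 ± 1.9 (-0.13, SE 0.042, edgeR adjusted p = 0.0901). Pxn made up 41.8%, 40.4% and 38.7% of paxillin family TPM in PBS and 42.9%, 43.0% and 41.9% in 5-FU. Its share lay higher in each 5-FU library, though the nearest libraries of the groups all but met.

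Flna (ENSMUSG00000031328), the cross-linker of cortical actin, had the highest counts and the widest spread, at 3658, 3414 and 3056 CPM in PBS and 3110, 3049 and 3397 CPM in 5-FU. The lowest PBS library fell among the 5-FU libraries, and no difference was called (3376 ± 300 and 3185 ± 190 CPM; -0.08, SE 0.065, edgeR adjusted p = 0.461). Flnc, the filamin of striated muscle, stood at 743 ± 71 and 845 ± 52 CPM with overlapping groups and was not called (0.19, SE 0.068, edgeR adjusted p = 0.120). In TPM Flnc lay well below Flna in every library, at 162 ± 18 in PBS and 189 ± 13 in 5-FU.

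**Figure D2:**
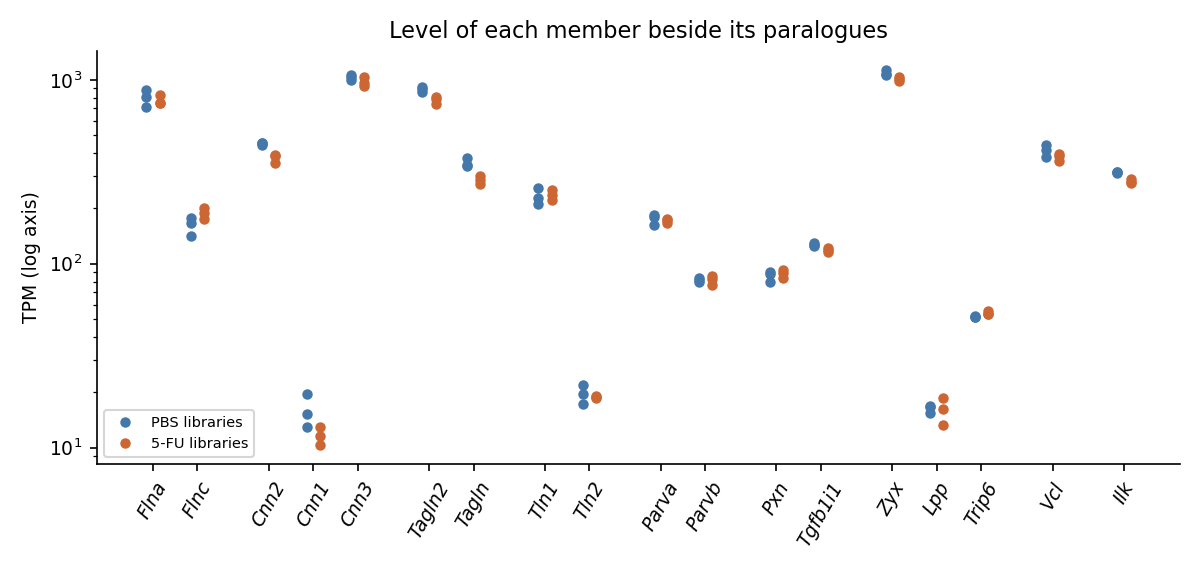
TPM on a log axis for each gene and selected paralogues, with a point per library and families set apart; Tagln3, Parvg and Lpxn, at or near 0, are among those not drawn. Zyx, Tln1, Tagln2, Parva and Flna are the most abundant of the genes drawn for their families, whereas Cnn3 lies above Cnn2 and Tgfb1i1 above Pxn.

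**Figure D3:**
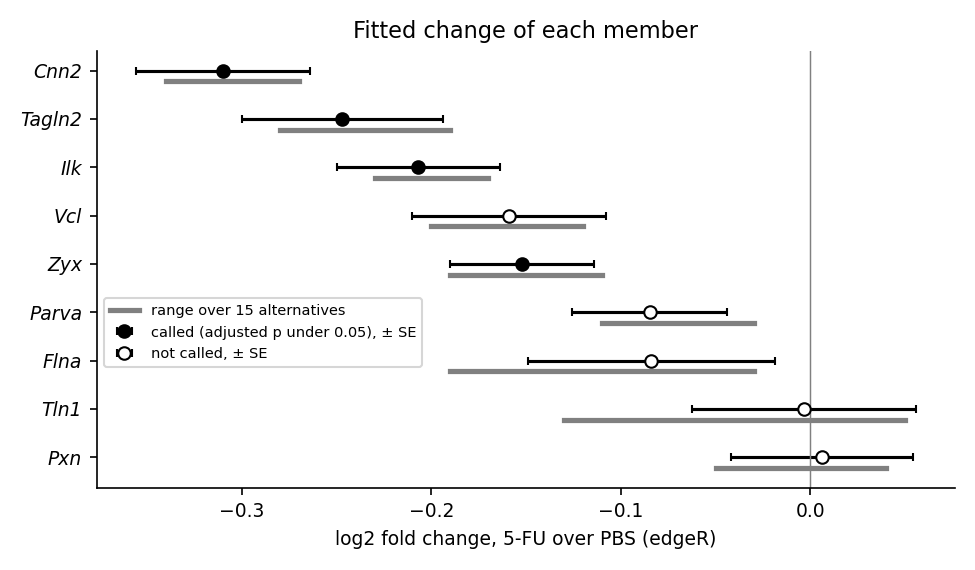
Log2 fold change of each gene from edgeR with its SE (points) and the range of the value over 15 alternatives (grey bars). Cnn2, Tagln2, Ilk and Zyx are called, and the bars of Tln1 and Pxn reach to both sides of 0.

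Ordered by their PBS level per unit length, the genes ran from Zyx (1093 ± 40 TPM) through Tagln2 (891 ± 28), Flna (797 ± 85), Cnn2 (451 ± 7.8), Vcl (412 ± 31), Ilk (315 ± 3.3), Tln1 (232 ± 23) and Parva (175 ± 11) to Pxn (85.8 ± 5.7). The library ranges of Tagln2 and Flna overlapped, as did those of Cnn2 and Vcl, and the other neighbours in this order were separated in PBS. In 5-FU the order was the same except that Vcl (380 ± 17 TPM) stood above Cnn2 (375 ± 19 TPM), whose ranges overlapped there too. The genes thus spanned a wide range of transcript levels, with Pxn at the 82.9th percentile of tested genes in PBS and Zyx at the 99.0th.

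The spread between libraries of the same group was itself patterned. In Vcl, Tln1, Pxn, Flna and Parva, PBS replicate 3 was the lowest PBS library, at 90.5% of the PBS mean for Flna and 93.5% for Tln1. In Vcl, Tln1, Flna and Parva the transcript is long, from 5267 bases for Vcl to 8456 bases for Flna, as the longest transcript of each gene in GENCODE M21. The same libraries differed in this way in other genes too. Among 534 genes with a transcript of 8000 or more bases and a mean of at least 10 CPM, the median log2 CPM, centred per gene, was 0.018, -0.024 and -0.108 in PBS replicates 1 to 3 and -0.054, 0.080 and 0.088 in 5-FU replicates 1 to 3. Among 1630 genes of under 2000 bases it was -0.021, 0.018 and 0.072 in PBS and 0.024, -0.049 and -0.038 in 5-FU. Smooth trends with length and GC content were then removed from each library. They were fitted against the mean of all 6 libraries, so the step also takes out any such trend that differs between PBS and 5-FU. Whether the trends came from the treatment or from the libraries was not tested. After this step edgeR called Flna lower (-0.19, SE 0.051, adjusted p = 0.0420), as it did Vcl, and Tln1 moved to -0.13 (SE 0.039, adjusted p = 0.0698). Cnn2, Tagln2, Ilk and Zyx kept their calls, at -0.31, -0.23, -0.20 and -0.19, and 6 of the 9 were then called lower. In the same fit 8.70% of all genes tested were called, 494 higher and 562 lower. Pxn, at -0.05 (adjusted p = 0.517), and Parva, at -0.10 (adjusted p = 0.0819), were not.

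**Figure D4:**
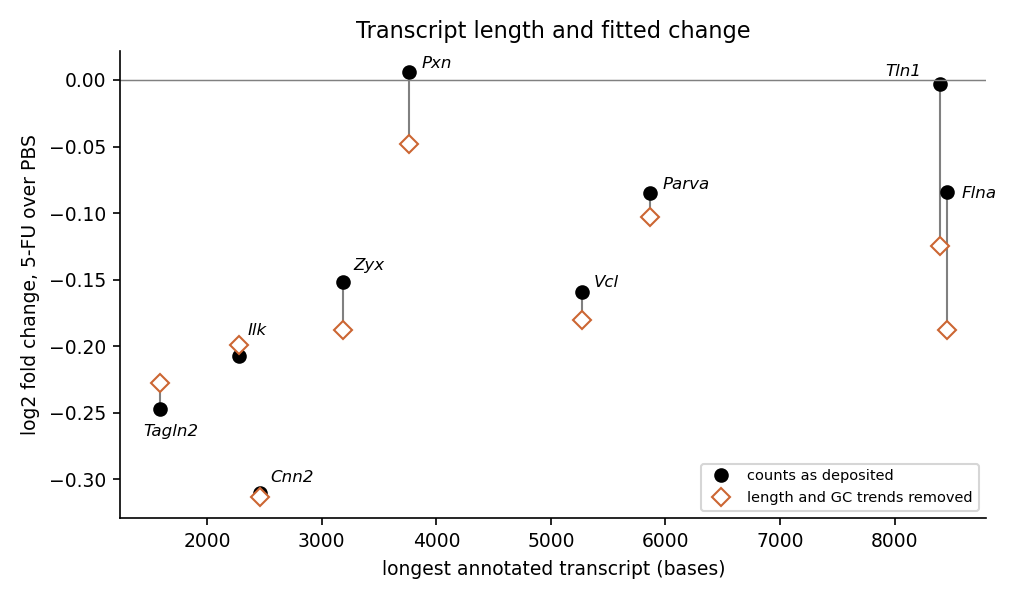
Log2 fold change of the 9 genes against the length of the longest annotated transcript, from the deposited counts (black) and after smooth trends with length and GC content were removed from each library (orange diamonds). The values of Tln1 and Flna, the longest transcripts, shift most, from -0.003 to -0.125 and from -0.084 to -0.188.

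Around these 9 genes, 168 further adhesion genes were listed by role, of which 150 were tested. The test called 6 of them higher and 15 lower (14.0% of those tested, beside 7.14% of all genes; median -0.025). Among the 1359 genes whose mean was at least that of Pxn, 12.8% were called in either direction. The lists were not matched to other genes by level, so their shares are not read as a trait of adhesion genes. Without PBS replicate 2 the count was 6, all lower, without PBS replicate 1 or 5-FU replicate 3 it was 13, and with the length and GC trends removed it was 35, of which 30 were lower, in a fit that called 8.70% of all genes and more of them lower than without that step. In the deposited annotation 193 other genes carry the Focal adhesion pathway term, and of the 157 tested 4 were called higher and 12 lower (10.2%, and 7.64% lower). Those 16 calls became 6 (1 higher, 5 lower) without PBS replicate 2 and 8 to 12 without any other single library, and limma on TPM turned the balance, with 7 higher and 5 lower of 148. Cnn2 and Tagln2 are not in that term, while the other 7 genes are. The median of those 157 genes was -0.009. Among the 12, and named after their values were seen, were the cytoplasmic actin genes that these linkers serve: Actb fell from 4006 ± 48 to 3283 ± 190 CPM (log2 fold change -0.29, adjusted p = 0.0054 by edgeR), and for Actg1 the fall was from 6498 ± 120 to 5238 ± 250 CPM (log2 fold change -0.31, adjusted p = 0.00275 by edgeR). Counts of both were partly not whole, and both have near-identical pseudogene copies, so their values are uncertain.

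Among the receptors and their ligands, 1 of 18 integrin subunits (5.56%) and 3 of 20 matrix ligands tested were called, beside 7.14% of all genes. Of 18 integrin subunits tested only Itgb5, a partner of the alpha-v chain, rose, from 335 ± 4.4 to 386 ± 22 CPM (log2 fold change 0.20, edgeR adjusted p = 0.0271), and none fell; the call was lost without PBS replicates 1 and 2 and 5-FU replicate 2, with adjusted p up to 0.119. Of 20 matrix ligands Tnc, the matricellular protein tenascin C, fell from 589 ± 31 to 472 ± 25 CPM (-0.32, edgeR adjusted p = 0.00503) and was called in all 6 refits. The laminin chain genes went apart, with Lama1 lower (-0.53, at 8.73 ± 0.52 and 6.06 ± 0.57 CPM) and Lamb2 higher (0.21), each called in 2 of 6 refits with adjusted p up to 0.0880 and 0.115. Among 24 plaque adaptors 3 rose, Lims2 (PINCH-2; 0.24), Kank2 (0.21) and the tensin Tns2 (0.20), and 1 fell, the kindlin Fermt2 (-0.26), which acts with talin on integrin tails. These calls were 16.7% of the list, beside 7.14% of all genes called and 3.87% called higher. Tns2 was called in 5 of 6 refits and the other 3 in 1 or 2; without PBS replicate 2 none of the 24 was called. Of 22 kinases and scaffolds 3 fell and none rose: the focal adhesion kinase gene Ptk2 (-0.18), the phosphatase gene Ptpn12 (-0.20) and the adaptor gene Crk (-0.16). They were 13.6% of the list, beside 3.26% of all genes called lower and 8.54% of those with a mean at least that of Pxn. Each of these 3 was called in 1 of 6 refits, with adjusted p up to 0.174. On TPM limma called none of 20, and with scaling by library size alone only 1 of 22 was called.

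Genes of the actin side, listed in the same way, were called lower more than higher. Of 24 zyxin relatives and LIM linkers 5 fell and none rose: Lmcd1 (-0.46), Csrp1 (-0.33), Fhl2 (-0.27), Pdlim5 (-0.23) and Fhl1, and the median was -0.068. They were 20.8% of the list, beside 3.26% of all genes called lower and 8.54% of those with a mean at least that of Pxn. On TPM limma called 3 of the 24. Csrp1, a LIM protein that binds alpha-actinin and zyxin, fell from 512 ± 19 to 407 ± 8.2 CPM (edgeR adjusted p = 0.00157) and Fhl2, a LIM cofactor found at adhesions, from 113 ± 4.4 to 93.1 ± 2.0 CPM (edgeR adjusted p = 0.00586), both in all 6 refits. Lmcd1 and Pdlim5 lost their call without PBS replicate 2 (adjusted p = 0.0620 and 0.0678), where 2 of the 5 remained. Of 24 actomyosin genes Myl9, a regulatory light chain of non-muscle and smooth muscle myosin, fell from 179 ± 12 to 123 ± 5.7 CPM (-0.54, edgeR adjusted p = 0.000487) and the formin Diaph3 from 49.7 ± 3.9 to 38.3 ± 3.4 CPM (-0.38, edgeR adjusted p = 0.0160), both in all 6 refits. Of 7 filamins, alpha-actinins and filamin partners, Actn3, the alpha-actinin of fast muscle fibres, rose from 374 ± 23 to 481 ± 85 CPM (0.37, edgeR adjusted p = 0.0483), a call kept in 1 of 6 refits and not made by DESeq2, limma-voom, limma on TPM or the fit with length and GC trends removed. The 7 calponin and transgelin relatives gave the edgeR calls of Cnn1 and Tagln described above and none upwards. Those calls were 28.6% of this short list, beside 3.26% of all genes called lower, and limma on TPM called 1 of 6.

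**Figure D5:**
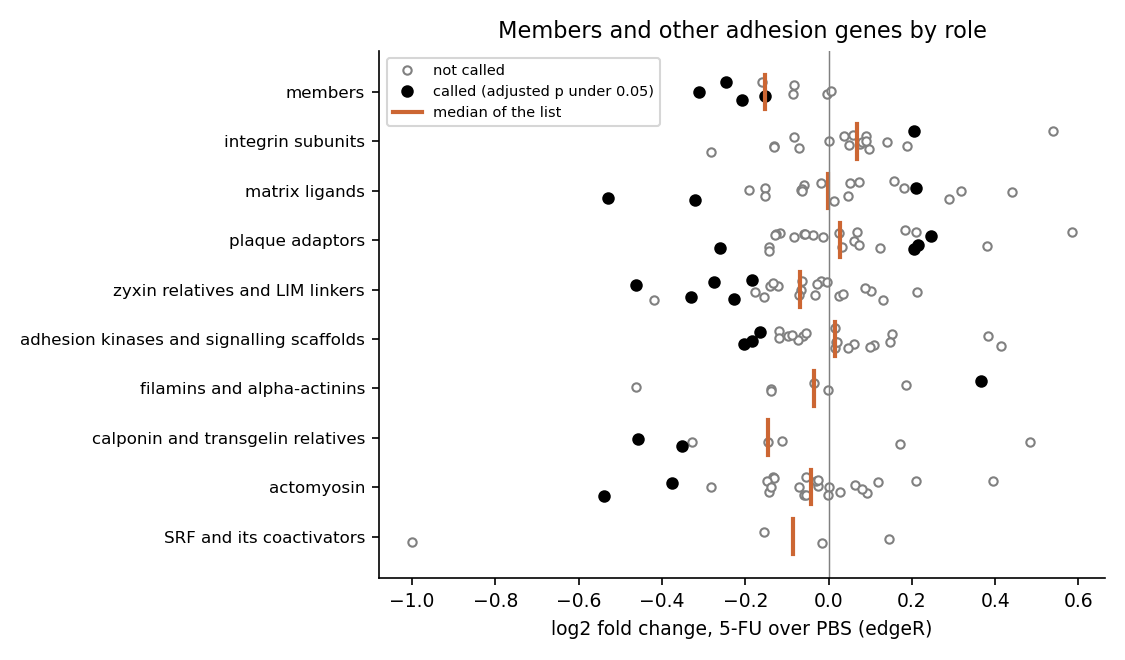
Log2 fold change of the 9 genes and of the tested genes of each role list, with called genes filled and the list median as a vertical bar. Calls on the negative side predominate among LIM linkers, calponin relatives and actomyosin genes, and plaque adaptors have 3 calls above 0 and 1 below.

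SRF and its coactivators, the regulators known for this gene class, were not called. Srf stood at 77.5 ± 3.9 and 69.6 ± 1.0 CPM (-0.15, SE 0.050, edgeR adjusted p = 0.0842). Mrtfa stood at 115 ± 7.4 and 113 ± 4.8 CPM (-0.02, SE 0.055) and Mrtfb at 64.9 ± 6.6 and 71.8 ± 3.3 CPM (0.14, SE 0.071). The groups did not overlap in Srf, which was lower in 5-FU, nor in Mrtfb, which was higher. Such separation was seen in 29.3% of the genes tested. Myocd was near the floor, with 2 to 18 counts in a library. Of the alternatives run, Srf was called lower only with the length and GC trends removed.

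Promoter windows from 250 bases before to 50 bases after the annotated start (RefSeq, GRCm38.p6) were at hand for 7 of the 9 genes, the exceptions being Pxn and Parva. The CArG box, the motif of SRF, was searched on both strands in its strict form, with no mismatch. It was found in the windows of 2 of the 7 genes, Cnn2 and Vcl, and in 1.81% of the 27025 genes with a window. Both hold the same palindromic word, CCTTATAAGG, which begins 56 bases before the start in Cnn2 and 227 bases before it in Vcl. Those windows are shown because they carry that shared word, given in capitals, with the Cnn2 window at chr10:79988350-79988649 (plus strand) and the Vcl window at chr14:20929148-20929447 (plus strand).
Cnn2: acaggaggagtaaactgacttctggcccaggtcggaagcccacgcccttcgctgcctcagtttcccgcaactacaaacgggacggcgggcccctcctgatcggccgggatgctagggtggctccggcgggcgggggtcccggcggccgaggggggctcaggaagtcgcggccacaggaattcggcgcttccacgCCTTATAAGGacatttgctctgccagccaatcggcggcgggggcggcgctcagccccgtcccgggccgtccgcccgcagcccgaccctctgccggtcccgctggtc
Vcl: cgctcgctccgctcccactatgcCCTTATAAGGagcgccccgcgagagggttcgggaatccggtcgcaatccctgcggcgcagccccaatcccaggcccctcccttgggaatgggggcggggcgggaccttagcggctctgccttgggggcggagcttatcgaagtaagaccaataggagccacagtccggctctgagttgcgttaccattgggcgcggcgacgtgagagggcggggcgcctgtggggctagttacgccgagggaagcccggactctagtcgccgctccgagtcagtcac

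The word CATTCC, which is bound by TEAD factors, was found on either strand for 3 of the 7 genes, Vcl, Flna and Tagln2, and in 16.6% of all genes. Tagln2 holds it at 118 and at 80 bases before the start, in capitals in the window at chr1:172499996-172500295 (plus strand), which is shown for these paired matches.
Tagln2: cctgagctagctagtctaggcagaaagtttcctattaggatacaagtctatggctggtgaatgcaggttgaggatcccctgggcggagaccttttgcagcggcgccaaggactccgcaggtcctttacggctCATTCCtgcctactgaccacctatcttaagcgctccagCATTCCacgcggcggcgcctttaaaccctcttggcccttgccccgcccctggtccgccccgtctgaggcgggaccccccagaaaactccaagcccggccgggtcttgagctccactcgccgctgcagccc
GGGCGG, the GC box, was found for 6 of the 7 genes, though not in every window of Ilk. It was found in 38.2% of all genes and in 69.9% of the tested genes. No motif was shared by the 4 called genes alone. Chosen after the values were seen, a count over the 156 tested genes with a CArG box in the window gave 7 higher and 14 lower (8.97% lower, beside 3.27% of the 9566 tested genes with a window; medians -0.029 and 0). For CATTCC 2.65% and for GGGCGG 3.53% were lower. Of the 10 role list genes with a CArG box, Fermt2, Fhl1, Fhl2, Lmcd1 and Myl9 were called lower and none higher. Among all 150 role list genes tested, 15 were called lower. Of those with a CArG box that were not called, Itgb6 (0.54) and Lama2 (0.16) had positive values. Rsu1 (-0.14), Srf (-0.15) and Trip6 (-0.02) had negative ones. The 5 lower genes and Cnn2 are among the 14 counted above, so the role list count is no separate evidence. A match is a word in a window and shows no binding.

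The pattern of the 4 called genes over the 6 libraries was matched most closely by Rras2, Cfdp1, Coro1c, Rps6ka2, Ndrg1 and Pcolce2 among 8946 other genes with a mean of at least 10 CPM. Likeness was the root mean square difference between the centred log2 CPM of a gene and the median centred profile of Cnn2, Tagln2, Ilk and Zyx over the 6 libraries, which was 0.018 to 0.023 for these 6 genes and 0.14 for the median gene. Of the 9 genes themselves Ilk and Tagln2 lay nearest to that profile (0.032 each) and Tln1 (0.15) and Pxn (0.14) farthest. Coro1c, which encodes an actin-binding coronin, stood at 331 ± 2.9 and 283 ± 9.2 CPM (-0.22) and Rras2, a small GTPase of the Ras family, at 372 ± 6.5 and 323 ± 13 CPM (-0.20). They were picked for a profile like that of genes called lower, so their own lower values follow from the choice and are given as a description. The calls were kept for Rps6ka2 and Ndrg1 in each of 6 refits, for Coro1c and Pcolce2 in 5, for Rras2 in 3 and for Cfdp1 in none.

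None of the 9 genes is in the authors' deposited table of 186 genes with an absolute log2 ratio of at least 0.585. Of the role lists that table holds 1 gene, Itgb6, with a log2 ratio of 0.61 and an FDR of 0.0568 in the authors' deposited table.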

How the data were processed

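Per the file headers, each gene has, for every library, a deposited estimated count and TPM; between 7.31% and 8.04% of the values in a library are not whole (tolerance 0.005), and the deposited estimated counts are not normalized. TPM, computed by the authors, sums to 1000000 in each library. Per the submitters' processing notes StringTie 1.3.1 was among the tools, in an unnamed role. Aligner, counter, build and strand setting: not given in the sources used here. The authors also deposited a table of group means, log2 ratios, p-values and FDR, whose test is not stated.

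Estimated counts were rounded and tested with edgeR 4.0.16 in R 4.3.3 (filterByExpr with a minimum of 10 counts, TMM factors, quasi-likelihood F test, two-sided, Benjamini-Hochberg over 12135 genes, call at adjusted p under 0.05); the SE is the fold change over the square root of F. The step was tested on simulated data. Alternatives used DESeq2 1.42.0 and limma 3.58.1. Members, role lists and the rule for named genes (all 9; up to 4 called genes per list by size of change, or the lowest p; fixed paralogues; the 6 nearest profiles) were chosen with earlier results of these data known. Protein sequences were not analysed here. No 2 libraries agreed within sampling noise. Results of some listed genes are not reported here.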

Additional observations from a re-analysis of the deposited data

How the results depend on the processing

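The count of genes called over the whole table was 866 (470 higher, 396 lower). It was 528 (342 higher, 186 lower) with limma on log2(TPM + 1), 513 (334 higher, 179 lower) on log2(TPM + 0.1), 239 at an adjusted p under 0.01, and 249 to 656 when 1 library was left out, lowest without PBS replicate 2 and highest without 5-FU replicate 1. Scaling by library size alone gave 908, split into 578 higher and 330 lower. The balance turned to mostly lower with the length and GC trends removed (1056; 494 higher, 562 lower), without PBS replicate 3 (475; 217 higher, 258 lower) and at an adjusted p under 0.01 (112 higher, 127 lower). Of the 9 genes, 4 were called, against 1 at an adjusted p under 0.01 and 1 to 3 without 1 library (1 without 5-FU replicate 2; 2 without PBS replicate 1, PBS replicate 2 or 5-FU replicate 3). Of the role list genes, 21 were called, against 12 with either TPM fit, 35 with the length and GC trends removed, 6 at an adjusted p under 0.01 and 6 to 17 without 1 library (6 without PBS replicate 2). The causes were not tested.

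Tln1 changed sign from -0.003 to 0.011 with library size alone and to 0.035 in both TPM fits, and ran from -0.054 to 0.053 without 1 library. Pxn changed from 0.006 to -0.048 with the length and GC trends removed and ran from -0.028 to 0.037 without 1 library. On CPM in place of TPM, the log2 ratios of group means were -0.207 for Ilk (TPM -0.17), -0.31 for Cnn2 (TPM -0.266) and -0.247 for Tagln2 (TPM -0.194). The other 7 genes kept their direction under all alternatives run.

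Replicate numbers are shared between groups. The deviations of same-numbered libraries correlated at -0.00163, 0.0868 and 0.132, and those of differently numbered libraries at -0.133 to 0.0436. The values for replicates 2 and 3 were thus the highest. The labels do not say whether the numbers mark pairs, and the main fit did not take them as pairs. With a replicate block 1199 genes were called, the same count of 4 among the 9 genes, and 28 role list genes. With 3 libraries per group, the main fit did not resolve the changes of Parva and Flna from the spread between libraries. Of the alternatives run, only the edgeR fit with the length and GC trends removed called Flna lower (-0.188, adjusted p = 0.042), and none called Parva.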
